A study of Caenorhabditis elegans with 2 samples.

Results

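The 5 actin genes of Caenorhabditis elegans, act-1 to act-5, were described in a chromatin immunoprecipitation and sequencing (ChIP-seq) experiment on the muscle transcription factor HLH-1. The genes were taken by name from the WBcel235 annotation, and make up 5 of the 19973 protein-coding genes annotated outside the mitochondrial genome. There is 1 group, HLH-1 eGFP ChIP, with 2 biological replicates, and it has no comparison condition. Each replicate was a pool of whole embryos of mixed stage and both sexes from strain OP64, which carries unc-119(ed3) on chromosome III and the transgene wgIs64. Per the labels, the immunoprecipitated protein was an eGFP fusion of hlh-1, and the strain is described as an insertion targeting that gene. Because whole embryos were used, binding in few cells and weak binding in many cells cannot be told apart, and body wall muscle was not separated from other tissues. A control library is named in the labels and was not analysed here.

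Actin polymerises into the thin filaments of the sarcomere, along which myosin moves, and into the cytoskeleton of every cell. In C. elegans act-1, act-2 and act-3 form a cluster and serve body wall muscle, with act-2 also used outside muscle, while act-4 stands alone and is active in muscle too. The divergent act-5 builds the microvilli of the intestine. HLH-1 is the worm relative of MyoD, a basic helix-loop-helix protein that binds E-boxes, DNA of the form CANNTG.

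The 4 peak lists used are on the ce11 build and were made by the authors. The list of peaks past their threshold of reproducibility (irreproducible discovery rate, IDR; called the IDR list here) held 3254 peaks with scores from 32.5 to 964.9, and these are the 3254 highest-scoring peaks of the pooled list. The relaxed lists, which mix peaks with background, held 25321 peaks for the pooled replicates, 28959 for replicate 1 and 30000 for replicate 2. The score is the authors' own peak value of no stated scale, so it is compared within a list only, together with the rank by score (1 is the strongest). Read depth is unknown here. A gene's window ran from 5 kb upstream of its most 5′ annotated base to its end, and a summit is the base that the list gives as the top of a peak.

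Of the 5 actin genes, 4 had an IDR summit in the window and act-5 had none, against a background of 21.7% of all protein-coding genes (4338 of 19973). The act-4 window held 4 IDR summits, the act-2 window 2, and the act-1 and act-3 windows 1 each. At least 4 summits were found in 0.381% of all protein-coding windows and at least 2 in 4.71%. The windows of the cluster overlap, so the 4 hits counted there are 3 distinct summits, and the genes had 7 distinct IDR summits in all. With 5 genes, of which 3 are neighbours, no test was made. Among IDR peaks at or above the median score, act-2, act-3 and act-4 had 1 summit each and act-1 had 0. When each summit was given only to its nearest protein-coding start, act-2 had 0, act-1 had 2 and act-4 had 3. The act-4 window was also long, at 8793 bp, whereas the median window of protein-coding genes was 7027 bp. Per length, IDR summits numbered 0.455 per kb in the act-4 window, 0.262 per kb over the joined windows of the cluster and 0 per kb at act-5, against 0.0325 per kb in the nuclear genome.

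The sequence of the summit and 50 bp on each side is given for some of the peaks. Those 96 bp upstream of act-3 and 546 bp upstream of act-1 were among the top 3254 peaks of both replicates. The others are the IDR peaks of both loci that held an E-box there, and the weak peak beside act-5. Peaks were thus picked partly for their E-boxes, so the sequences do not show how often one lies under a peak. Of the 7 IDR summits in the windows, 2 held one. The peak 3196 bp upstream of act-4, also among the top 3254 peaks of both replicates, held none and is not shown. Bases run 5′ to 3′ on the strand of the gene named (WBcel235, from RefSeq), and capitals mark E-boxes of any kind.
act-3, 96 bp upstream of the start (chrV:11074544-11074644, minus strand): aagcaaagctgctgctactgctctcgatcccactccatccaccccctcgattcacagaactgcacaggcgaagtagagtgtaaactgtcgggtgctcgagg
act-1, 546 bp upstream (chrV:11080456-11080556, plus strand): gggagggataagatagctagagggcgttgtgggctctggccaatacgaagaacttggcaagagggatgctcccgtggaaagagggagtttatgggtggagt
act-1, 281 bp past the gene end (chrV:11082646-11082746, plus strand): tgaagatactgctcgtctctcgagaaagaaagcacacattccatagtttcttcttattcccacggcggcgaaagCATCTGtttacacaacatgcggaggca
act-1, 1504 bp past the gene end (chrV:11083869-11083969, plus strand): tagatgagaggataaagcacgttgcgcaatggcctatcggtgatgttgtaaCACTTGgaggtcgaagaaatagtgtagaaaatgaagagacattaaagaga
act-4, 982 bp upstream (chrX:4959589-4959689, plus strand): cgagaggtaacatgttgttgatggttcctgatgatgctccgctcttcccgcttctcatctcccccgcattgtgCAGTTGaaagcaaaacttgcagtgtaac
act-5, 591 bp upstream, pooled relaxed list only (chrIII:13606607-13606707, minus strand): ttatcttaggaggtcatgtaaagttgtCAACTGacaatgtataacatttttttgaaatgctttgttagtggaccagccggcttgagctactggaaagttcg

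The cluster covers 10726 bp of chromosome V. From left to right it holds act-3 (WBGene00000065, 11071690 to 11074498, minus strand), act-2 (WBGene00000064, 11076777 to 11078154, minus strand) and act-1 (WBGene00000063, 11081052 to 11082415, plus strand), so that act-2 and act-1 point away from each other across 2898 bp. The strongest IDR peak in the windows of the 3 genes lay at the far start of act-3 (11074446 to 11074741, summit 11074594, intergenic, score 103, rank 507 of 3254). It was 96 bp upstream of the longest act-3 transcript, whose 5′ UTR begins with a separate exon at 11074415 to 11074498. The shorter act-3 transcript starts at 11073264, and from there the same summit lay 1330 bp upstream. In replicate 1 the overlapping peak scored 16.7 (rank 378) and in replicate 2 it scored 79.1 (rank 694). Both replicates thus placed it in the upper part of their lists.

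Between act-2 and act-1 lay 1 IDR peak (11080358 to 11080653, summit 11080506, score 49.9, rank 1960). Its summit was 546 bp upstream of act-1 and 2352 bp upstream of act-2, inside exons of the annotated non-coding RNA genes T04C12.16 and T04C12.25. The overlapping peaks scored 9.95 in replicate 1 (rank 1207) and 48.4 in replicate 2 (rank 1710). Nearer to act-2 there was no IDR summit: the closest peak of the pooled relaxed list lay 387 bp upstream of the act-2 start (summit 11078541, score 15.5, rank 8233), and replicate 1 had no peak that overlapped it. Among the 4 genes with an IDR summit in the window, the distance from the start to the nearest one was largest at act-2.

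Past the end of act-1 the cluster had a further pair of IDR peaks. One (11082548 to 11082843, summit 11082696, score 83.8, rank 789) lay 281 bp beyond the act-1 end, in an exon of the non-coding RNA gene T04C12.29, and entered the act-2 window at 4542 bp upstream of that gene. It was strong in replicate 2 (score 77.7, rank 714) and among the weakest in replicate 1 (score 2.69, rank 24004 of 28959). The top 3254 peaks of replicate 1 alone accordingly left act-2 with 1 summit and the cluster with 2. The other (11083771 to 11084066, summit 11083919, intergenic) lay 1504 bp past the act-1 end and so outside every window. It was the strongest of the locus in all lists, with a score of 105 (rank 495) in the IDR list, 20.3 (rank 220) in replicate 1 and 87.8 (rank 564) in replicate 2. In both cases act-1 had the nearest protein-coding start.

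**Figure D1:**
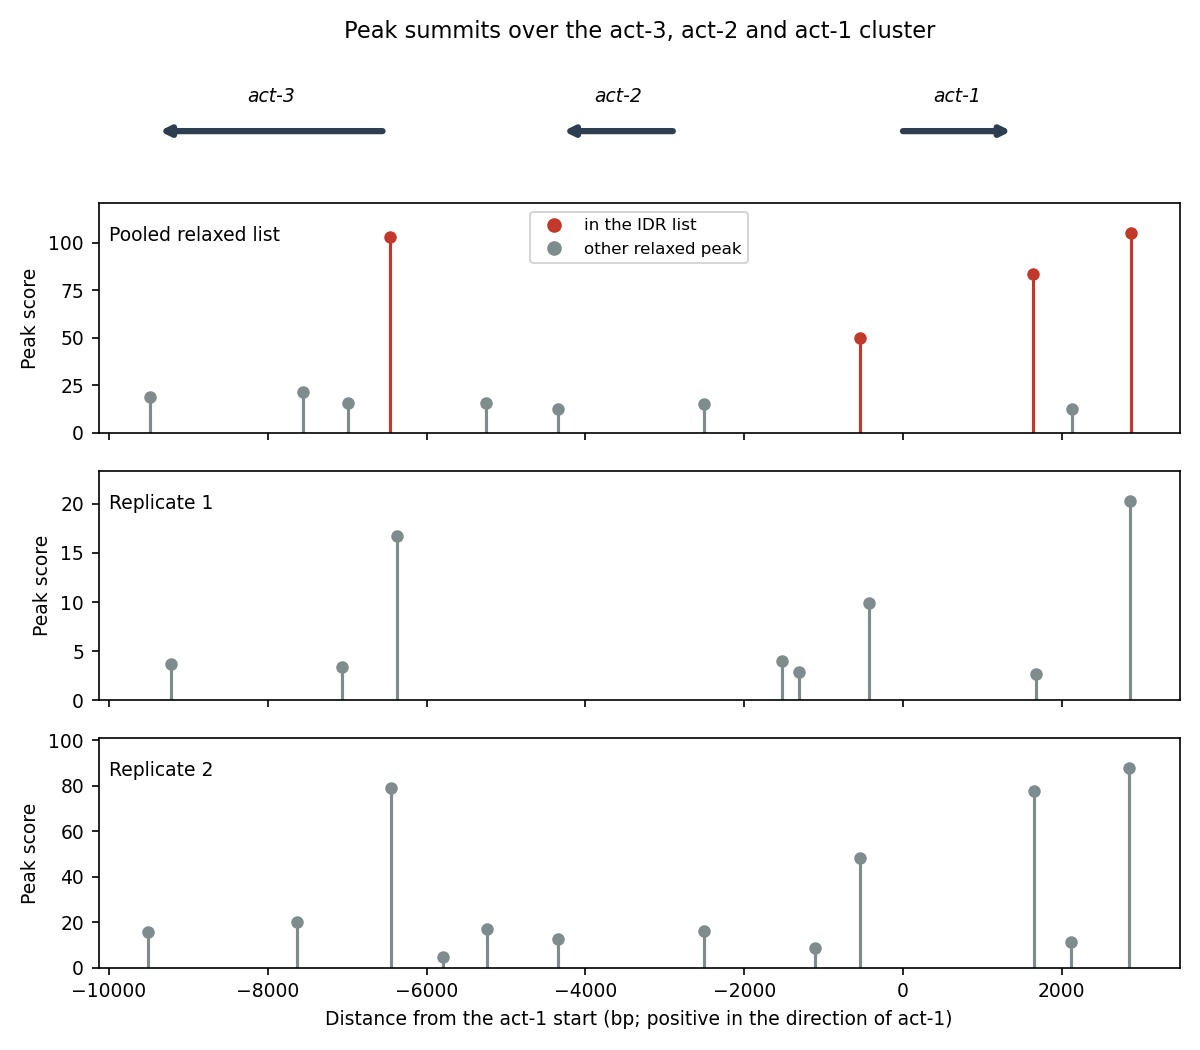
Summits over the act-3, act-2 and act-1 cluster, by distance from the act-1 start in bp (x axis) and peak score (y axis, a separate scale in each panel, since scores of different lists are not on 1 scale), with red points, in the pooled panel, for peaks in the IDR list and arrows for the genes. The 4 red points, with scores of 49.9 to 105, stand at the far start of act-3, between act-2 and act-1, and, for the other 2, past the act-1 end; the one with a score of 83.8 has a score of 2.69 in replicate 1.

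The single gene act-4 (WBGene00000066, chromosome X, 4960621 to 4964413, plus strand) had IDR peaks on both sides of its start, within 3774 bp. The strongest (4957277 to 4957572, summit 4957425, intergenic, score 73.9, rank 988) lay 3196 bp upstream, and its nearest protein-coding start was that of the very short gene M03F4.4, 7 bp away. It was also the strongest of the act-4 window in replicate 1 (score 17.9, rank 317) and replicate 2 (score 56.1, rank 1317). Nearer to the gene, the summit at 4959639 lay 982 bp upstream (4959491 to 4959786, intergenic). Its score of 32.8 gave rank 3227 of 3254, close to the end of the IDR list, with ranks of 4821 in replicate 1 and 2846 in replicate 2.

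The peak on the act-4 start itself (4960483 to 4960778, summit 4960631, score 49.3, rank 1996) had its summit in the 5′ UTR, 10 bp downstream of the start. In replicate 2 it scored 44.5 (rank 1941), and in replicate 1 no peak overlapped it, so it rested on 1 replicate. The last (4961051 to 4961346, summit 4961199, score 36.3, rank 2869) lay 578 bp downstream in the long intron that follows the opening exon. Here replicate 1 ranked the overlapping peak higher, at 986 (score 10.9), than replicate 2, at 3889 (score 24.7). The start and the intron were thus ordered differently by the replicates.

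Of the 10 pooled relaxed summits in the act-4 window, 6 were outside the IDR list. They were led by 1 at 2595 bp upstream (summit 4958026, score 28.1, rank 3832), beyond the end of the IDR list at rank 3254. In replicate 1 no peak overlapped this one. The next lay in the same intron, 1673 bp (score 20.7) and 1212 bp (score 19.3) downstream. Those in the 3′ part of the gene scored 12.9 or less. The act-4 transcript with the later start, at 4962875, had a pooled relaxed summit 11 bp downstream of that start with a score of 12.6 (rank 11545). At least 10 pooled summits were found in 1.20% of all protein-coding windows. The replicates differed here: replicate 2 had 12 summits in the act-4 window, a number reached by 1.03% of windows, and replicate 1 had 5, reached by 13.5%. In the cluster, the act-3 window had 6 pooled summits, a number reached by 6.27% of windows. There too the replicates differed, with 6 summits in replicate 2 (reached by 9.27%) and 3 in replicate 1 (reached by 41.6%). The act-1 and act-2 windows had 3 pooled summits each, reached by 33.7%. Of the pooled act-3 summits, 2 lay in an intron. The stronger (summit 11073496, score 21.5, rank 5190) was 232 bp upstream of the start of the shorter act-3 transcript. In replicate 1 no peak overlapped it.

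**Figure D2:**
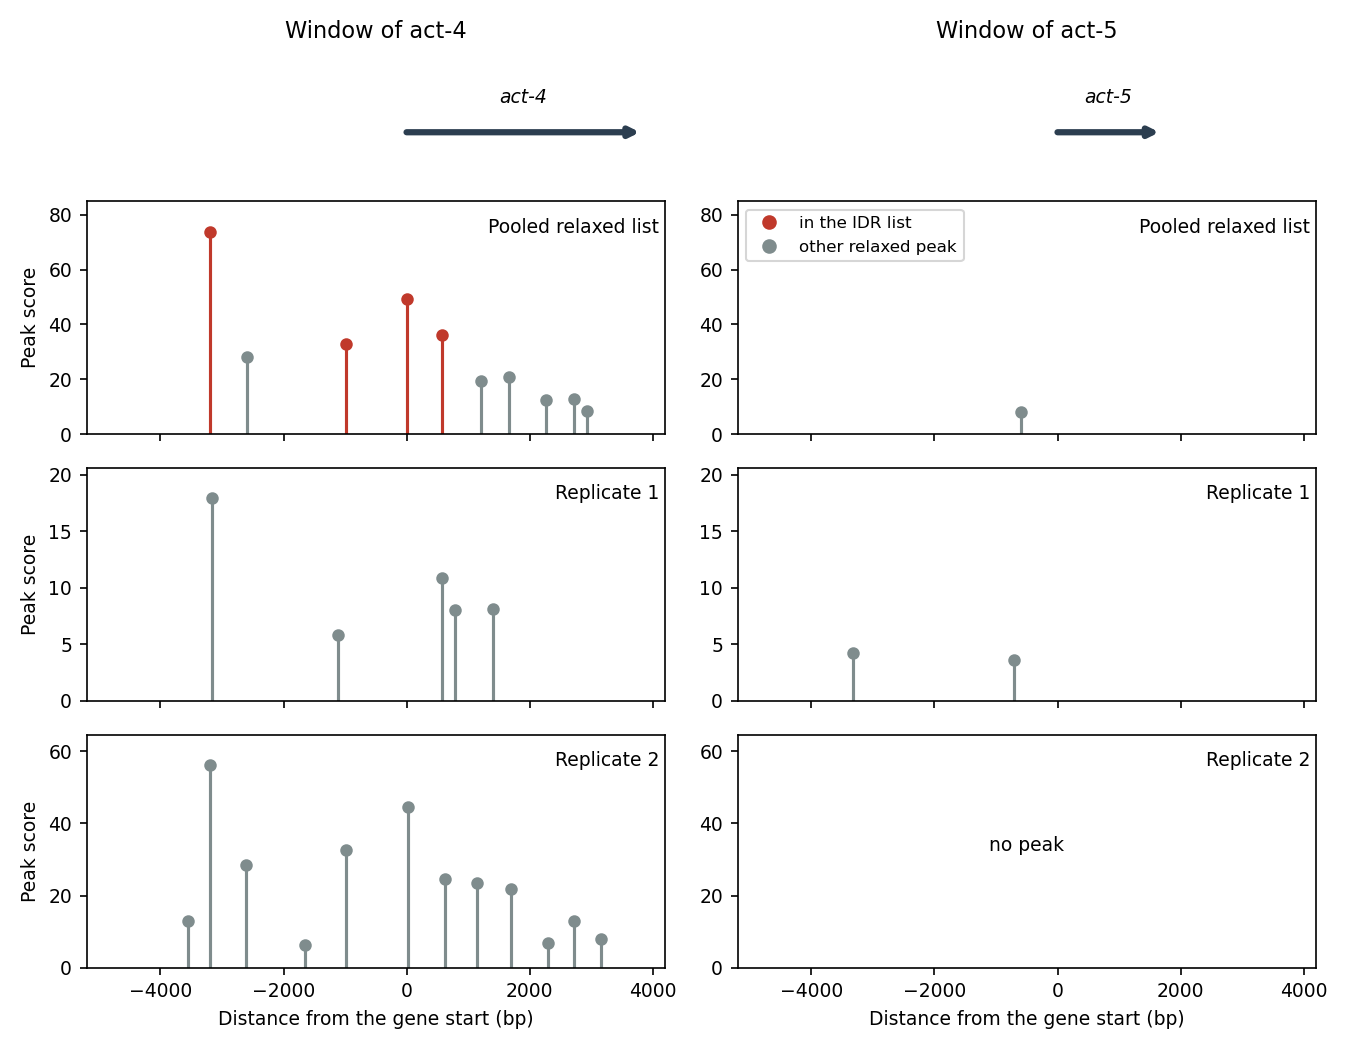
Summits in the windows of act-4 (left) and act-5 (right), by distance from the gene start in bp (x axis) and peak score (y axis, 1 scale per list, shared by both genes), with red points, in the pooled panel, for peaks in the IDR list. The 4 red points at act-4 score 32.8 to 73.9, while the act-5 window has 1 pooled peak with a score of 7.91, 2 weak peaks in replicate 1 and none in replicate 2.

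The intestinal gene act-5 (WBGene00000067, chromosome III, 13604412 to 13606066, minus strand) had no IDR summit in its window, nor in a window reaching 10 kb upstream. The nearest IDR summit was 10905 bp upstream of its start (13616971, score 301, rank 18), beyond the neighbouring gene shpk-1. The pooled relaxed list held 1 peak in the window (13606509 to 13606804, summit 13606657, intergenic, 591 bp upstream), with a score of 7.91 and rank 24612 of 25321. Replicate 1 had summits 713 bp upstream (score 3.66, rank 14779) and 3332 bp upstream in a coding exon of shpk-1 (score 4.22, rank 11023), and replicate 2 had none. By comparison, 77.1% of all protein-coding windows had a pooled relaxed summit, 85.8% had one in replicate 1 and 79.5% in replicate 2, so a relaxed peak in the window is what most genes have.

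The replicates ordered the actin peaks differently. Of the 7 IDR peaks in the windows, 6 overlapped a peak in replicate 1 and 7 a peak in replicate 2, against 2706 and 3253 of all 3254 IDR peaks. Overlap with the top 3254 peaks of each replicate was found for 4 of 7 in replicate 1 and 6 of 7 in replicate 2, against 51.5% and 93.5%. In both top lists at once there were 3 of 7 (48% of all IDR peaks), namely the peaks 96 bp upstream of act-3, 546 bp upstream of act-1 and 3196 bp upstream of act-4. These shares were set side by side and not tested. The summits of the replicates lay 39 to 113 bp apart at these 3 peaks.

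**Figure D3:**
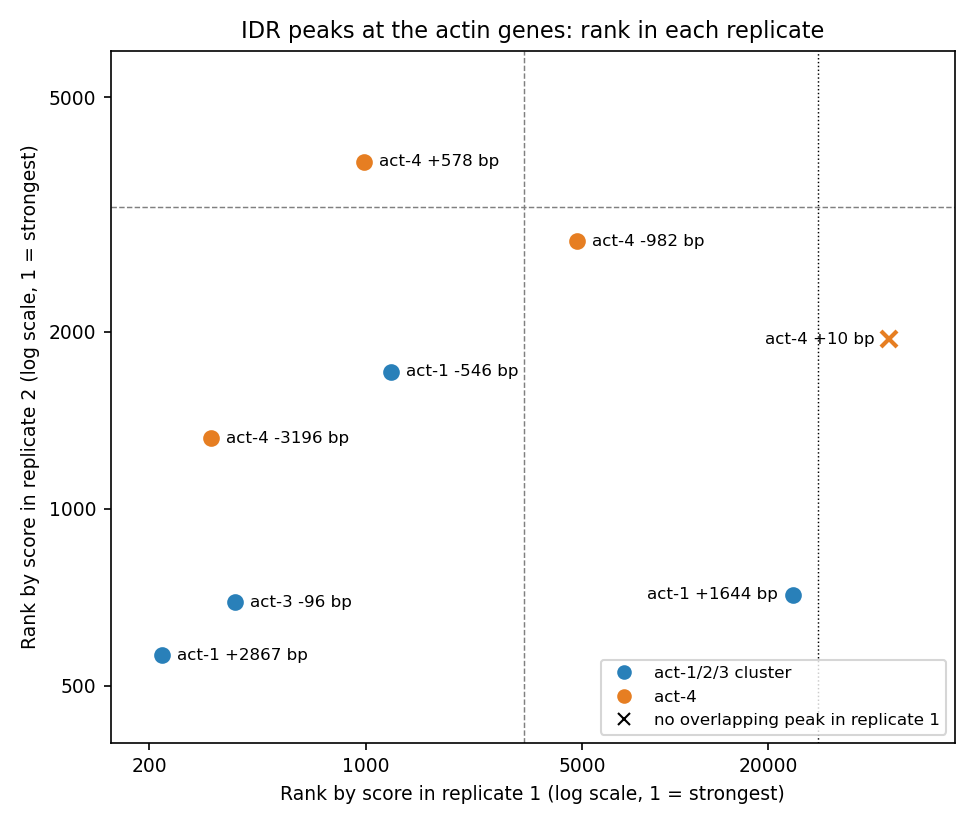
Rank by score in replicate 1 (x axis) and replicate 2 (y axis) of the 8 IDR peaks at the cluster and act-4, on log scales where 1 is the strongest, named by the distance from a gene start, with dashed lines at rank 3254 and a dotted line at the end of the replicate 1 list. The peak 281 bp past the act-1 end lies at rank 24004 in replicate 1 and 714 in replicate 2. The cross marks the peak on the act-4 start, which has no overlapping peak in replicate 1.

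Few of the summits lay on E-boxes. Within 50 bp on each side of the 7 IDR summits, 2 held an E-box of any kind, against 63.4% of all IDR summits. CAGCTG was in 0 of 7 (15.2% of all), CACCTG in 0 of 7 (9.43%) and CAACTG in 1 of 7 (18%), on both strands. The CAACTG site, read as CAGTTG on the act-4 strand in the sequence above, was centred 25.5 bp from the summit 982 bp upstream of act-4, the weakest of the 7 peaks. The other E-box, CATCTG, was centred 26.5 bp from the summit 281 bp past the act-1 end. Within 25 bp on each side, 0 of the 7 held one, against 43.1% of all IDR summits. The 2 peaks in the windows that replicate 1 ranked highest, 96 bp upstream of act-3 and 3196 bp upstream of act-4, held none within 50 bp. The peak 1504 bp past the act-1 end, the strongest of the locus but outside the windows, had CACTTG centred 3.5 bp from its summit. GAGAGA, a hexamer without an E-box, was in 1 of 7 windows, against 29.7% of all. No match means only that these letters are not in the window.

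E-boxes of any kind numbered 4.09 per kb in the act-1 window, 4.55 at act-2, 4.23 at act-3, 4.09 at act-4 and 3.76 at act-5, against 4.18 per kb over all protein-coding windows. CAGCTG and CAACTG and CACCTG together numbered 1.06 per kb over all protein-coding windows. The counts here are small, and the windows of the cluster overlap, so a site there can be counted for more than 1 gene. There were 6 at act-1 (0.943 per kb), 6 at act-2 (0.941 per kb), 5 at act-3 (0.64 per kb), 9 at act-4 (1.02 per kb) and 7 at act-5 (1.05 per kb). The values of act-4 and act-5 were near that of all windows. Of these sites, 2 at act-4, 1 at act-2, 1 at act-3, 0 at act-1 and 0 at act-5 lay inside an IDR peak. The act-5 window held 2 of the CAGCTG sites and act-4 held 1, whereas the cluster had none. The weak pooled peak at act-5 had CAACTG centred 20.5 bp from its summit, shown in capitals in the sequence above. Over all protein-coding windows, with overlapping windows joined (91718603 bp), there were 19305 CAGCTG sites. Counts of 0 to 2 per window are too small to be read as a difference between the genes.

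The actin genes are close copies of each other, which bears on where reads can be placed. The coding sequences of act-1 and act-3 were identical over 1128 bp, and act-2 differed from both at 43 bp and act-4 at 66 bp. The encoded proteins of act-1 and act-3 were the same, act-4 differed from them by 1 residue and act-2 by 3, while act-5 differed by 29 (92.3% identity). Of the 36-base words in the coding sequence, 0% were found once in the genome at act-1 and at act-3, 57.7% at act-2, 81.1% at act-4 and 98.5% at act-5. In the 1 kb upstream of each gene, 100% were found once at all 5 genes. The same held for each of the 8 IDR peaks described here, where all 261 words of 36 bases were found once. No summit of the 4 lists fell in a coding exon of act-1, act-2 or act-3. At act-4 there were 2 in the pooled list, 2 in replicate 2, and 0 in the IDR list and in replicate 1. Pooled summits numbered 0.253 per kb in the nuclear genome and 0.698 per kb over the joined windows of the cluster. Whether the absence of a summit from the coding sequences of the cluster is unusual was not tested. The sources used here do not say how reads with several matches were treated, and the part of repeated sequence in this absence was not tested. In the 5 kb upstream of act-5, 78.9% of the words were found once.

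**Figure D4:**
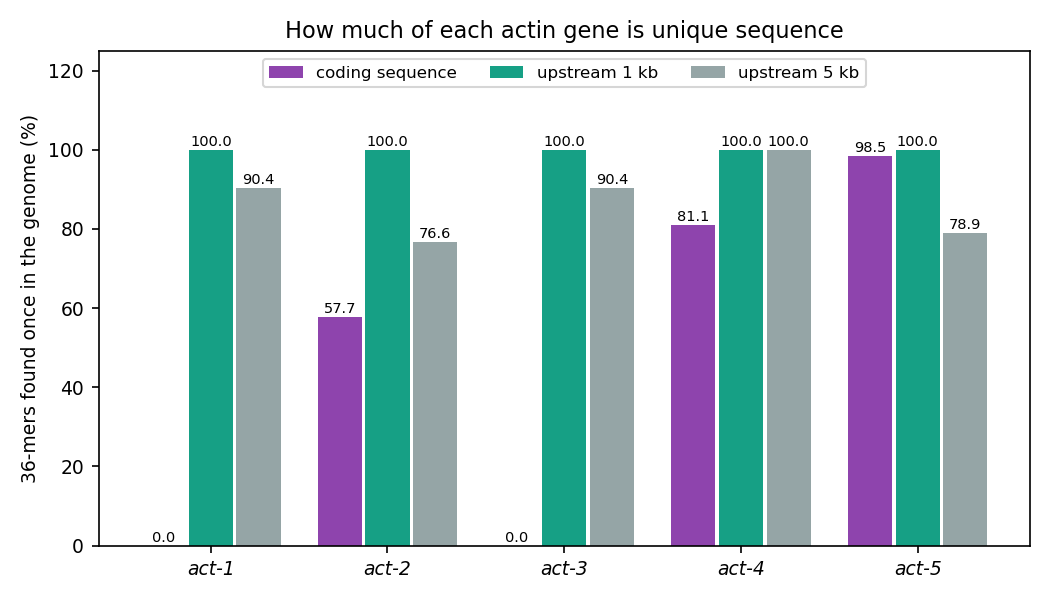
Percentage of 36-base words found once in the genome (y axis) in the coding sequence, the 1 kb upstream and the 5 kb upstream of each actin gene (x axis). The coding sequences of act-1 and act-3 have 0%, and the 1 kb upstream has 100% at every gene; the values for 5 kb include the neighbouring actin genes in the cluster.

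The genes of 4 further lists were looked at in the same windows, where 21.7% of all protein-coding genes had an IDR summit. Of 12 thin filament genes of muscle 9 had an IDR summit, led by unc-27, which encodes a troponin I (score 290, 248 bp upstream), unc-94, a tropomodulin that caps the filament (score 223, 2142 bp downstream), and tnt-3, a troponin T (score 191, 539 bp upstream). Of 14 actin dynamics genes 11 had one, led by the cofilin gene unc-60 (score 162, 3814 bp upstream), the gelsolin relative fli-1 (score 71.2) and the calponin-like gene clik-1 (score 64.4). The Arp2/3 complex, which starts branched filaments, and other actin-related genes had 5 of 12, led by wve-1, whose product activates the complex (score 320, 4812 bp upstream), arx-5 (score 95.2) and arx-2 (score 92.9). Of 11 genes of the apical side of the intestine 3 had one (27.3%), a share near that of all protein-coding genes, led by the junction gene dlg-1 (score 107, 4397 bp upstream), the villin gene viln-1 (score 49.6) and the polarity gene par-6 (score 38.3). The strongest peaks in the actin windows scored 103 and 83.8 in the cluster and 73.9 at act-4. They were below those of the leading thin filament genes and above most actin dynamics genes. The peak of 83.8 lay past the act-1 end and ranked 24004 in replicate 1. The peak of 73.9 had M03F4.4 as its nearest start, 7 bp away.

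With the window drawn closer, from 2000 bp upstream to 500 bp downstream of the start, 3 of 5 actin genes kept a summit (act-1, act-3 and act-4), as did 7 of 12 thin filament genes, 8 of 14 actin dynamics genes, 2 of 12 Arp2/3 and actin-related genes and 0 of 11 intestinal genes, against 12.8% of all protein-coding genes. The IDR summits of act-2 and of the intestinal genes all lay outside this closer window. The 4 lists are short and were not tested.

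**Figure D5:**
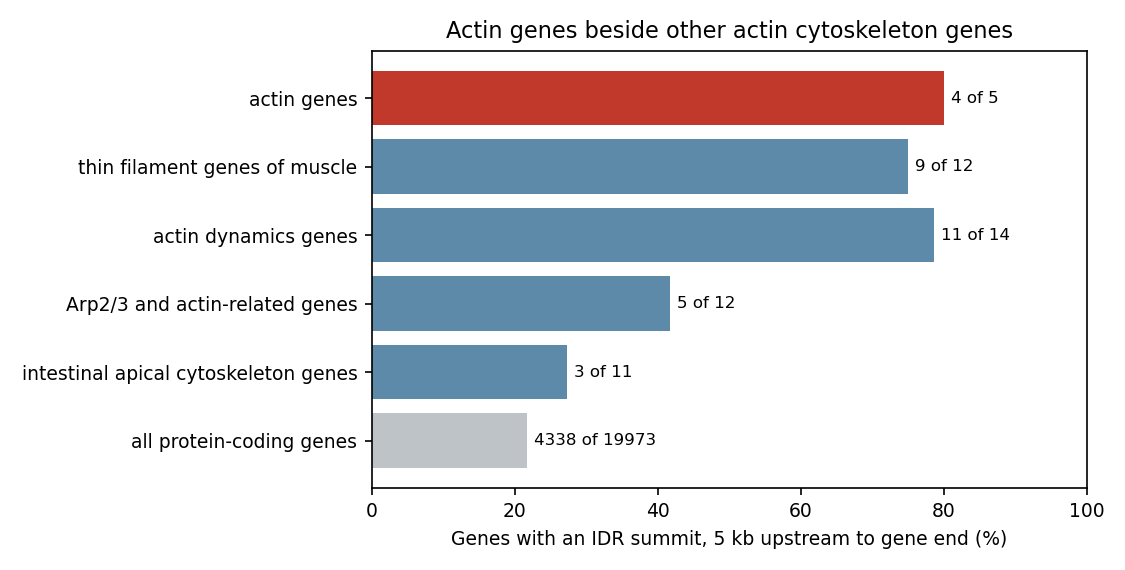
Percentage of genes with an IDR summit from 5 kb upstream to the gene end (x axis) for the actin genes, 4 further gene lists and all protein-coding genes (y axis), with counts beside the bars. The actin genes (4 of 5), the thin filament genes (9 of 12) and the actin dynamics genes (11 of 14) stand above the intestinal genes (3 of 11) and all protein-coding genes (4338 of 19973).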

How the data were processed

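The authors deposited peak lists, 1 relaxed list per replicate, 1 from the pooled alignments, and 1 list past an IDR threshold, derived from the other 3 per the manifest deposited with the samples. Each peak has a score deposited by the authors, of no stated scale. The names of the aligner and peak caller and the level of the IDR cut were not given in the sources used here. Lists on ce11 were used with WBcel235, and 0 peaks lay beyond a chromosome end; ce10 lists were not used and no coordinates were converted. Fragments were 150 to 350 bp per the labels.

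Genes came from Ensembl release 115. Summits were counted in windows from 5 kb upstream of the start to the gene end over all protein-coding genes. The 10 distinct E-boxes were searched on both strands within 50 bp on each side of summits. Words of 36 bases were counted in the whole genome, both strands. Coding sequences were aligned with Biopython 1.88 under Python 3.11.15, and peaks were joined at an overlap of 1 bp. The counting was tested on simulated data. Genes named are the 5 actins, genes nearest to their summits and up to 3 per list with the strongest summits; the peak 1504 bp past the act-1 end was added once its values were known. The members and lists were chosen with earlier results of these data known, and give no independent support. No test was planned, since there is 1 group and no second condition to compare it with. Intervals were not computed, and read depth is unknown. Other windows, lists, overlaps and word lengths were tried as alternatives.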

Additional observations from a re-analysis of the deposited data

How the results depend on the processing

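The 7 IDR summits at the actin genes became 8 with 10 kb upstream or with 2 kb past the gene end, 7 with any overlap of the peak, and 6 when each summit went to its nearest protein-coding start only. The window from 2000 bp upstream to 500 bp downstream left 4, and peaks at or above the median score left 3. The top 3254 peaks of replicate 1 alone gave 6 summits, and those of replicate 2 alone also 6. These were not all at the IDR peaks. Of the 7 IDR peaks, 4 overlapped a top peak of replicate 1 and 6 one of replicate 2. The replicate 1 summit at 4962024 in the act-4 window (rank 1968) overlapped no IDR peak. In these alternatives act-5 had 0. Pooled relaxed summits numbered 19, 17 at or above the median score and 8 in the closer window. Overlap of 50% of each peak left 6 of 7 IDR peaks with a partner in both replicates, against 64% of all IDR peaks. At 1 bp it was also 6 of 7, against 83.2% of all. One of CAGCTG or CAACTG or CACCTG lay within 50 bp on each side of 1 summit of 7, against 38.8% of all IDR summits. Within 100 bp it was 1 of 7 (48.2% of all) and within 25 bp 0 of 7 (26.2%). Words of 50 bases found once made up 22.7% of the coding sequence of the cluster, and words of 36 bases 19.2%. For single genes and the cluster, 37 of 48 alternative counts stayed within 1.5 times of the count reported and 11 did not. The closer window left act-2 with 0 and act-4 with 2; the median score left act-1 with 0, act-2 with 1 and act-4 with 1; the nearest start left act-2 with 0 and gave act-1 2. Each of these 3 alternatives left 3 of the 5 genes with a summit. Replicate 1 alone left act-2 with 1, 10 kb upstream gave act-1 2 and act-3 4, and 2 kb past the end gave act-1 3. The causes were not tested. No paired analysis was possible because there is 1 group. Unknown read depth limits what the absence of a peak shows.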
